A study of Mus musculus with 18 samples.

Results

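The response described here is that of C3H10T1/2 cells to an adipogenic mix given on top of TCDD, with no EGF on either side. C3H10T1/2 is a mouse fibroblast line with mesenchymal stem cell properties that can be turned into fat, bone, cartilage or muscle cells in culture. The arrays were chosen by their titles: 2 arrays of IDMB+TCDD were set against 2 arrays of TCDD, that is 4 of the 18 arrays of the series. IDMB+TCDD cells received 10 nM TCDD for 72 h and, for the last 24 h, IDMB, which per the labels held insulin at 10 µg/mL, the phosphodiesterase blocker IBMX at 0.5 µM, and dexamethasone and BRL49653 at 1 µM each. TCDD cells received 10 nM TCDD for 72 h and no mix. The mix response without TCDD, 3 arrays of IDMB (the mix alone for 24 h) against 3 arrays of UT (neither agent), is used for comparison. The labels do not say what UT stands for. All cultures were sampled 72 h after serum was last added and 24 h after confluence, and each array carried mRNA pooled from 6 cultures. Nothing in the labels says whether replicate pools came from separate experiments, so the p-values measure the spread between arrays, which may be technical. As this is RNA of whole cultures, fewer cells of a type and less RNA per cell cannot be told apart.

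Each component of the mix acts on a known pathway. Dexamethasone activates the glucocorticoid receptor, a nuclear receptor that binds palindromic response elements in DNA. IBMX blocks phosphodiesterases and so raises cyclic AMP, but the labelled dose is low for such a mix and is given here as the labels have it. Insulin acts through its own receptor and, at high dose, the IGF1 receptor. BRL49653, rosiglitazone, is an agonist of PPARG, the nuclear receptor at the centre of fat cell differentiation. In the usual cascade CEBPB and CEBPD appear first and PPARG and CEBPA follow, after which genes of lipid storage are switched on. TCDD, a dioxin, activates the aryl hydrocarbon receptor (AhR), which induces enzymes such as CYP1A1 and CYP1B1 and is known to hold back fat cell differentiation in such cells.

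The values are deposited signal intensities of 12422 non-control probe sets. A probe set is a group of short oligonucleotides that reads 1 transcript, or several transcripts of a family. Intensities below 143.5, the 20th percentile of all values, were raised to that floor and log2 was taken. A difference is called when its limma p is below 0.05 after Benjamini-Hochberg adjustment for the 7134 probe sets bright enough to test, with the spread estimated over all 18 arrays. Differences are given as log2 of IDMB+TCDD minus TCDD with their standard error (SE). Replicate arrays correlated at r = 0.952 over the tested probe sets in IDMB+TCDD and in TCDD alike, and arrays of opposite groups at 0.870 to 0.900. Array medians were 814 and 802 in IDMB+TCDD, against 864 and 936 in TCDD.

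A pair of technical measures moved with the groups. The ratio of 3' to 5' actin signal, which follows RNA integrity and labelling, was 1.98 and 2.07 in IDMB+TCDD, against 1.43 and 1.23 in TCDD, while the mix without TCDD gave 2.25, 1.83 and 1.80 in IDMB, against 1.37, 1.43 and 1.37 in UT. The intensity that the brightest 0.1% of probe sets exceeded was 166843 and 177594 in IDMB+TCDD, against 115493 and 77274 in TCDD. The 71 brightest probe sets (the top 1%) had a median log2 difference of 0.74, which was 0.90 when arrays were scaled to a common median and 0.07 after quantile normalization. With the actin ratio as a covariate 210 probe sets were called, and 202 of these were among the 914 called without it, in the same direction. All 914 kept their direction in that fit, whose median SE was 0.41. Of the called genes given with values below, 25 lost their call in that fit (adjusted p = 0.0549 to 0.423): Angptl4, Bgn, Cad, Ces1d, Cxcl12, Dgat1, Dlk1, Fabp4, Fdps, Gclc, Ifit1, Klf4, Klf9, Lcn2, Matn4, Mcm5, Mgst1, Pdk4, Per1, Scx, Sfrp2, Sgk1, Slc7a5, Sqle and Srebf1. Some of these 25 differences were larger in that fit, as for Dgat1 (1.94, against 1.36 without the ratio). Others were smaller, as for Scx (-2.37, against -3.66). The Gapdh 3' to 5' ratio was 1.05 and 1.09 in IDMB+TCDD, against 0.92 and 0.85 in TCDD. With it as the covariate 717 probe sets were called, at a median SE of 0.30, and 682 of them were among the 914. The part of the actin ratio in the differences was not tested further.

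The mix changed the expression of many genes in cells under TCDD. Of 7134 probe sets, 466 were called higher and 448 lower (12.8% called, with 6.53% higher and 6.28% lower). The number called was 306 to 556 with any 1 of the 4 arrays left out: 556 without IDMB+TCDD 1, 306 without IDMB+TCDD 2, 494 without TCDD 1 and 398 without TCDD 2. With arrays scaled to a common median, which moved the median difference from -0.08 to 0.08, the split was 574 higher and 247 lower. At the level of genes, each taken by its brightest tested probe set, 358 were higher and 352 lower of 5438 (6.58% and 6.47%). Values of both groups did not overlap for 60.5% of probe sets, which is the background for that statement below. With the actin ratio as a covariate 121 of the 7134 probe sets were called higher and 89 lower, against 466 and 448 without it. Counts of lists in that fit, or without 1 array, therefore stand beside fewer calls over all probe sets.

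Of 3 genes used to mark the response, 2 rose and 1 was not called. Rgs2, a regulator of G protein signalling that cyclic AMP induces, had 33087 and 25946 in IDMB+TCDD, against 781 and 579.7 in TCDD. This was a 43.5-fold rise (log2 5.44, SE 0.39, adjusted p = 3.06e-07). Fkbp5, a co-chaperone of the glucocorticoid receptor and a standard readout of its activity, had 14691 and 12457 in IDMB+TCDD, against 1924 and 1294 in TCDD (log2 3.10, SE 0.36, adjusted p = 5.47e-05). Plin2, a coat protein of lipid droplets, had 18009.9 and 21073 in IDMB+TCDD, against 13687 and 13211 in TCDD. The Plin2 arrays did not overlap, but the difference did not pass the test (limma log2 0.53, SE 0.24, adjusted p = 0.165).

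**Figure D1:**
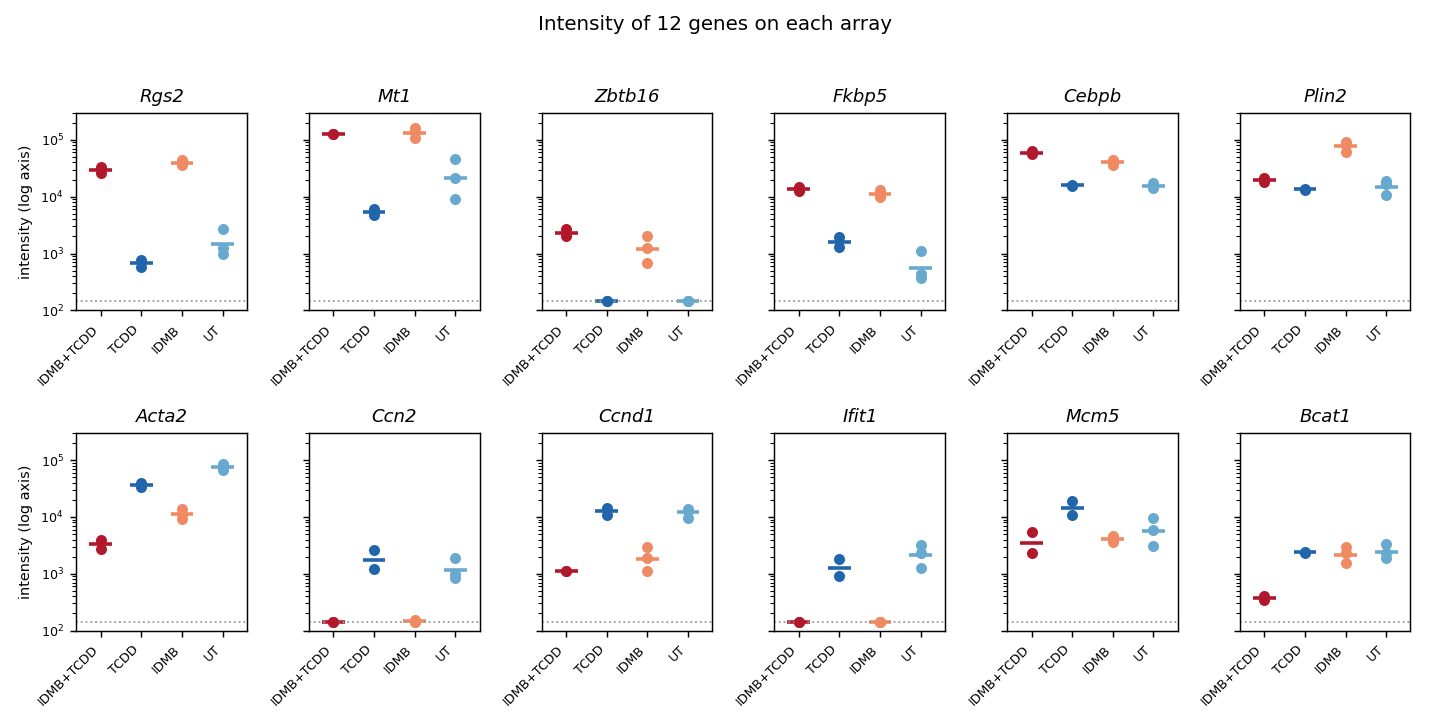
Intensity on each array (log axis) of 12 genes in IDMB+TCDD, TCDD, IDMB and UT; points are arrays, bars are geometric means and the dotted line is the floor of 143.5. In IDMB+TCDD, Rgs2, Mt1, Zbtb16, Fkbp5 and Cebpb lie above their TCDD arrays, Acta2, Ccn2, Ccnd1, Ifit1, Mcm5 and Bcat1 lie below them, and Plin2 lies little above.

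The 15 largest rises without overlap between the groups included Rgs2, Mt1, Saa3, Lbp and Orm1. The largest after Rgs2 was that of Mt1, a metallothionein that binds zinc and copper, at 124331 and 125242 in IDMB+TCDD, against 4717 and 6079 in TCDD (log2 4.54, SE 0.58, adjusted p = 0.000101). Saa3, an acute phase serum amyloid, reached 9462 and 12364 in IDMB+TCDD, against 563 and 1183 in TCDD (log2 3.73, SE 0.44, adjusted p = 5.48e-05). Lbp, which binds bacterial lipopolysaccharide, had 50766 and 39288 in IDMB+TCDD, against 4383 and 3850.4 in TCDD, a rise of 10.9-fold (log2 3.44, SE 0.24, adjusted p = 2.71e-07). Orm1, the acute phase glycoprotein orosomucoid, had 1370.5 and 2203 in IDMB+TCDD, against 36.1 and 150.4 in TCDD (log2 3.56, SE 0.48, adjusted p = 0.000195). That every IDMB+TCDD array of these genes stood above every TCDD array was a condition of their choice.

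Zbtb16 (PLZF), a zinc finger transcription factor that glucocorticoids induce, was listed at 2679.6 and 2006 in IDMB+TCDD, against 39.6 and 8.9 in TCDD. Both TCDD values are below the floor, so the rise was at least 16.2-fold (log2 4.01, SE 0.48, adjusted p = 5.48e-05). Lef1, a DNA-binding partner of beta-catenin in Wnt signalling, had 1173 and 1517 in IDMB+TCDD, against 81.6 and 90.0 in TCDD, again with TCDD wholly below the floor. Its rise was at least 9.29-fold on this probe set (log2 3.22, SE 0.48, adjusted p = 0.00046), but a further probe set of Lef1 was at 0.32 (adjusted p = 0.57). Cdo1, cysteine dioxygenase, which degrades cysteine, had 18255 and 15703 in IDMB+TCDD, against 1820.1 and 1649 in TCDD (log2 3.29, SE 0.29, adjusted p = 2.83e-06). Adarb1, an RNA-editing adenosine deaminase, had 13315 and 13995 in IDMB+TCDD, against 2109.9 and 1098 in TCDD (log2 3.16, SE 0.46, adjusted p = 0.000366).

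Igfbp4, Igf1, Tnfrsf21 and a pair of p200 genes were also among the 15. Igfbp4, which binds insulin-like growth factors, had 1787 and 1971 in IDMB+TCDD, against 162 and 176 in TCDD (log2 3.47, SE 0.54, adjusted p = 0.00063), with a further probe set at 0.55 (adjusted p = 0.59). Igf1 itself had 3141 and 3343 in IDMB+TCDD, against 156 and 826 in TCDD (log2 3.18, SE 0.67, adjusted p = 0.0055). The spread between TCDD arrays was wide here, and the difference was 1.97 without TCDD 1 (adjusted p = 0.0813) and 4.38 without TCDD 2 (adjusted p = 0.00108). The other probe set of Igf1 was at -0.08 (adjusted p = 0.88), so its probe sets disagree. Tnfrsf21, death receptor 6, had 3914 and 3588 in IDMB+TCDD, against 608 and 196 in TCDD. Its rise of 3.44 (SE 0.55, adjusted p = 0.000702) was 4.25 without TCDD 1 (adjusted p = 0.000627) and 2.62 without TCDD 2 (adjusted p = 0.0148). Ifi204 and Ifi207, interferon-inducible nuclear proteins of the p200 family, completed the set. The Ifi204 probe set had 57098 and 53249 in IDMB+TCDD, against 8594 and 5058 in TCDD (log2 3.06, SE 0.26, adjusted p = 2.43e-06), and the Ifi207 probe set had 8645 and 7934 in IDMB+TCDD, against 477 and 496 in TCDD (log2 4.09, SE 0.24, adjusted p = 4.59e-08). The names of both probe sets mark them as shared by a gene family, so which p200 member they read is uncertain.

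The 15 largest falls included Acta2, Ccn2, Ccnd1, Myl9, Ifit1 and Ifit3, the last pair described below. Acta2, smooth muscle alpha-actin, was 11.3-fold lower, at 2739 and 3929 in IDMB+TCDD, against 34255 and 40159.8 in TCDD (log2 -3.50, SE 0.21, adjusted p = 4.59e-08). Ccn2 (CTGF), a matrix-associated growth factor, was listed at 68.4 and 55.7 in IDMB+TCDD, against 2575 and 1211 in TCDD. The IDMB+TCDD values are below the floor, so the fall was at least 12.3-fold (log2 -3.62, SE 0.46, adjusted p = 0.000101). Ccnd1, cyclin D1, which drives entry into the cell cycle, had 1133 and 1114 in IDMB+TCDD, against 14393 and 10889 in TCDD (log2 -3.48, SE 0.39, adjusted p = 4.22e-05). Myl9, the regulatory light chain of smooth muscle myosin, was listed at 40.2 and 80.7 in IDMB+TCDD, against 968 and 2500.1 in TCDD, a fall of at least 10.8-fold (log2 -3.44, SE 0.60, adjusted p = 0.00154). It was -4.12 without TCDD 1 (adjusted p = 0.00287) and -2.75 without TCDD 2 (adjusted p = 0.0329).

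Tyro3, a receptor tyrosine kinase, was listed at 50.3 and 47.4 in IDMB+TCDD, against 1558 and 1320.0 in TCDD, at least 10.0-fold lower (log2 -3.32, SE 0.45, adjusted p = 0.000176). Mfap5, a glycoprotein of elastic microfibrils, had 880.2 and 942 in IDMB+TCDD, against 4666 and 7835 in TCDD (log2 -2.73, SE 0.34, adjusted p = 8.46e-05), while its other probe set was at -1.11 and was not called (adjusted p = 0.0652). Bcat1, the cytosolic branched-chain aminotransferase, had 342 and 406 in IDMB+TCDD, against 2299 and 2436 in TCDD (log2 -2.67, SE 0.34, adjusted p = 0.000101). Smyd2, a lysine methyltransferase, had 264 and 296 in IDMB+TCDD, against 2445 and 1765 in TCDD (log2 -2.89, SE 0.55, adjusted p = 0.00298), while its other probe set was at 0.09 (adjusted p = 0.932). Ccl2, the monocyte chemokine MCP-1, had 2710.3 and 2035 in IDMB+TCDD, against 30808 and 10659 in TCDD (log2 -2.95, SE 0.57, adjusted p = 0.00335). The TCDD arrays of Ccl2 stood far apart, and the difference was -2.18 without TCDD 1 (adjusted p = 0.0508) and -3.71 without TCDD 2 (adjusted p = 0.0031).

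For a further 4 of these 15 falls the call was lost without single arrays. The last of them, Ces1d, had another probe set at -1.80 that was not called (adjusted p = 0.263). Scx, scleraxis, the transcription factor of tendon cells, had 272 and 359 in IDMB+TCDD, against 2770.2 and 5643 in TCDD (log2 -3.66, SE 0.98, adjusted p = 0.0218). It was -3.46 without IDMB+TCDD 1 (adjusted p = 0.0967), -3.86 without IDMB+TCDD 2 (adjusted p = 0.093), -4.17 without TCDD 1 (adjusted p = 0.0521) and -3.15 without TCDD 2 (adjusted p = 0.149). Matn4, a cartilage matrix protein, had 1530.1 and 1682 in IDMB+TCDD, against 7991 and 16232 in TCDD (log2 -2.83, SE 0.65, adjusted p = 0.00962) and gave -2.76 without IDMB+TCDD 1 (adjusted p = 0.0515), -2.90 without IDMB+TCDD 2 (adjusted p = 0.059) and -2.32 without TCDD 2 (adjusted p = 0.104). Cad, the enzyme of the first steps of pyrimidine synthesis, had 212 and 226 in IDMB+TCDD, against 1458 and 1476 in TCDD (log2 -2.74, SE 0.62, adjusted p = 0.00873) and gave -2.79 without IDMB+TCDD 2 (adjusted p = 0.0575) and -2.74 without TCDD 2 (adjusted p = 0.0562). Ces1d, a carboxylesterase, was listed at 30.2 and 122 in IDMB+TCDD, against 1053 and 1131 in TCDD on a family-shared probe set, a fall of at least 7.6-fold (log2 -2.93, SE 0.68, adjusted p = 0.0101) that gave -2.93 without IDMB+TCDD 2 (adjusted p = 0.0645), -2.98 without TCDD 1 (adjusted p = 0.0529) and -2.88 without TCDD 2 (adjusted p = 0.0696).

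Of the 26 lists described, the glucocorticoid responsive genes had the highest share called. Of 27 glucocorticoid responsive genes tested, 19 rose, 0 fell and 8 were not called, against 6.58% of all genes called higher. The list's median log2 difference was 2.16, against -0.07 over all genes tested. The count was 14 without IDMB+TCDD 1, 15 without IDMB+TCDD 2, 15 without TCDD 1 and 14 without TCDD 2, and 10 with the actin ratio as a covariate. With the filter on the mean over all arrays, 23 genes of the list were tested and 16 rose, against 352 of all 4775 genes tested. Besides those above, Mt2, another metallothionein, had 177964 and 171629 in IDMB+TCDD, against 21619 and 23576 in TCDD (log2 2.95, SE 0.41, adjusted p = 0.000227). Errfi1 (MIG6), a feedback inhibitor of the EGF receptor, had 26680.4 and 27379 in IDMB+TCDD, against 5361 and 3816 in TCDD (log2 2.58, SE 0.22, adjusted p = 2.01e-06). Pdk4, which holds pyruvate out of oxidation, had 10836 and 10662 in IDMB+TCDD, against 2192 and 1183 in TCDD. It rose by 2.74 (SE 0.58, adjusted p = 0.0058) and gave 2.29 without TCDD 2 (adjusted p = 0.074). Sgk1, a kinase that regulates ion channels, had 19677 and 10721 in IDMB+TCDD, against 4352 and 1446 in TCDD (log2 2.53, SE 0.46, adjusted p = 0.00213) and gave 3.33 without TCDD 1 (adjusted p = 0.000627) and 1.74 without TCDD 2 (adjusted p = 0.0389). With the actin ratio as a covariate Sgk1 was at 2.13 (adjusted p = 0.108). Tsc22d3 (GILZ), a textbook target, was on the array but too dim to be tested.

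Promoter windows are shown for the glucocorticoid genes that carry the receptor's palindrome, since these are the letters the receptor is known to read. The windows run from 250 bases before to 50 bases after the gene start in RefSeq annotation of GRCm38.p6, 5' to 3' on the strand of the gene, and capitals mark the match. The motif searched on both strands was GNACANNNTGTNC. Of the 19 genes called higher, 15 had a window, with 23 windows in all, and 2 of these genes held the motif, Sgk1 and Mt1. Of all 32851 windows 0.475% held it, a share by window and not by gene.
Sgk1, chr10:21993640-21993939, plus strand: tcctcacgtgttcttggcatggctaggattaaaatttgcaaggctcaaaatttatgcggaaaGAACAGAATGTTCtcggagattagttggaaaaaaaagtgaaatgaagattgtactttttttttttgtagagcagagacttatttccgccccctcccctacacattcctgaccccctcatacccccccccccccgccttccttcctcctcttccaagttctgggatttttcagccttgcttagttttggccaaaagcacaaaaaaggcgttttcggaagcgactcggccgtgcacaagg
Mt1, chr8:94178839-94179138, plus strand: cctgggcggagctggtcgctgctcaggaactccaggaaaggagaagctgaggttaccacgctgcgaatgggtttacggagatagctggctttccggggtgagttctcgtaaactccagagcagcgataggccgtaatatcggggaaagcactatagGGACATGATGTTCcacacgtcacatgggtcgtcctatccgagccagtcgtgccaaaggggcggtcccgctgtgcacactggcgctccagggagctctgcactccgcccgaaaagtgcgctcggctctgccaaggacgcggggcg
The match begins 188 bases before the gene start in Sgk1 and 94 bases before it in Mt1. A match of letters is a description and no evidence of binding, and known glucocorticoid elements often lie far outside such windows.

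Genes that cyclic AMP is known to induce moved less uniformly. Of 14 tested, 3 rose (Rgs2, Cebpb and Per1) and 1 fell (Atf3), against 6.58% of all genes called higher and 6.47% lower. The other 10 were not called. Per1, a clock gene induced by cyclic AMP and by glucocorticoids, had 2678 and 2357 in IDMB+TCDD, against 721 and 1022 in TCDD (log2 1.55, SE 0.35, adjusted p = 0.00933) and gave 1.46 without IDMB+TCDD 1 (adjusted p = 0.0597), 1.64 without IDMB+TCDD 2 (adjusted p = 0.0518) and 1.30 without TCDD 1 (adjusted p = 0.0879). Atf3, a stress-induced transcription factor, had 143 and 177 in IDMB+TCDD, against 1113 and 870.5 in TCDD (log2 -2.63, SE 0.46, adjusted p = 0.00172), while its other probe set, shared by a family, was at 0.21 (adjusted p = 0.875). Crem was too dim to be tested. The palindrome TGACGTCA, a cyclic AMP response element, was found in 0 of the 4 promoter windows of the 3 genes that rose, against 1.79% of all windows.

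Among adipogenic transcription factors Cebpb and Cebpd rose, and Pparg and Cebpa were not called. Cebpb, which starts the cascade, had 64098 and 55393 in IDMB+TCDD, against 16151 and 15430.4 in TCDD, a 3.77-fold rise (log2 1.92, SE 0.20, adjusted p = 2.05e-05). Cebpd, its partner in the first hours, had 76588 and 81023 in IDMB+TCDD, against 32303 and 28037 in TCDD (log2 1.39, SE 0.20, adjusted p = 0.000324). Pparg had 1237 and 1168 in IDMB+TCDD, against 765 and 964 in TCDD (log2 0.48, SE 0.42, adjusted p = 0.499) and was not called. Cebpa had 8289.8 and 11099 in IDMB+TCDD, against 12598 and 13041 in TCDD, with both IDMB+TCDD arrays below both TCDD arrays, and was not called either (log2 -0.42, SE 0.49, adjusted p = 0.631). Srebf1, a regulator of lipid synthesis, rose by 0.61 (SE 0.15, adjusted p = 0.0168) and gave 0.45 without IDMB+TCDD 1 (adjusted p = 0.145), 0.61 without TCDD 1 (adjusted p = 0.074) and 0.60 without TCDD 2 (adjusted p = 0.0888). Klf9, a glucocorticoid-induced factor of the cascade, rose by 0.84 (SE 0.25, adjusted p = 0.0375) and gave 0.58 without IDMB+TCDD 1 (adjusted p = 0.258), 0.81 without TCDD 1 (adjusted p = 0.152) and 0.87 without TCDD 2 (adjusted p = 0.128). Another Klf9 probe set was at 1.25 and was not called (adjusted p = 0.0837). Klf4, an early factor, fell to 2723 and 1689.5 in IDMB+TCDD, against 5875 and 10629.5 in TCDD (log2 -1.88, SE 0.35, adjusted p = 0.00247), and was at -1.94 with the actin ratio as a covariate (adjusted p = 0.0549). In all, 4 of 16 tested members rose and 1 fell, against 6.58% of all genes called higher and 6.47% lower. The other 11 were not called, and the list's median was 0.13. The count of rises was 2 without IDMB+TCDD 1, 4 without IDMB+TCDD 2, 2 without TCDD 1 and 2 without TCDD 2, and 2 with the actin ratio as a covariate, which left 0 falls.

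Some lipid droplet genes rose. Abhd5 (CGI-58), the co-activator of adipose triglyceride lipase, had 6416 and 7091 in IDMB+TCDD, against 1119.9 and 1372 in TCDD (log2 2.44, SE 0.28, adjusted p = 4.57e-05). Pnpla2, that lipase itself, had 5496 and 6532 in IDMB+TCDD, against 2254 and 2589 in TCDD (log2 1.31, SE 0.21, adjusted p = 0.000674). Dgat1, which catalyses the last step of triglyceride synthesis, rose by 1.36 (SE 0.39, adjusted p = 0.0331) and gave 1.45 without IDMB+TCDD 1 (adjusted p = 0.0869), 1.26 without IDMB+TCDD 2 (adjusted p = 0.175), 1.59 without TCDD 1 (adjusted p = 0.0633) and 1.12 without TCDD 2 (adjusted p = 0.201). Lipe, hormone-sensitive lipase, had 1135 and 1344 in IDMB+TCDD, against 406 and 779.8 in TCDD, without overlap, and did not pass (log2 1.13, SE 0.44, adjusted p = 0.108). Of 9 tested genes of lipid droplets and lipolysis, 0 fell and 6 were not called, at a median of 0.78. The other 3 rose, against 6.58% of all genes called higher. The count was 2 whichever of the 4 arrays was left out, and Abhd5 and Pnpla2 were called in each of these fits. It was also 2 with the actin ratio as a covariate.

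The products of mature fat cells were mostly dim or not called. Adipoq, the gene of the hormone adiponectin, had 361 and 307 in IDMB+TCDD, against 192 and 214 in TCDD (log2 0.71, SE 0.55, adjusted p = 0.444). Lpl, lipoprotein lipase, was listed at 131 and 114 in IDMB+TCDD, against 246 and 293 in TCDD, with the IDMB+TCDD arrays below the floor, and was not called (log2 -0.90, SE 0.79, adjusted p = 0.502). Fabp4, the fat cell fatty acid-binding protein, had 766 and 959 in IDMB+TCDD, against 376 and 244 in TCDD. It rose by 1.50 (SE 0.40, adjusted p = 0.0224) and gave 1.66 without IDMB+TCDD 1 (adjusted p = 0.0574), 1.34 without IDMB+TCDD 2 (adjusted p = 0.16) and 1.19 without TCDD 2 (adjusted p = 0.173). Hp, haptoglobin, an acute phase protein that fat cells secrete, had 31255 and 48625 in IDMB+TCDD, against 3522 and 11471 in TCDD (log2 2.62, SE 0.46, adjusted p = 0.00154) and gave 1.76 without TCDD 1 (adjusted p = 0.0234) and 3.47 without TCDD 2 (adjusted p = 0.000297). Angptl4, an inhibitor of lipoprotein lipase induced by PPARs and glucocorticoids, rose by 1.93 (SE 0.56, adjusted p = 0.0324). It gave 2.07 without IDMB+TCDD 1 (adjusted p = 0.0826), 1.78 without IDMB+TCDD 2 (adjusted p = 0.176), 1.57 without TCDD 1 (adjusted p = 0.199) and 2.28 without TCDD 2 (adjusted p = 0.067), and its other probe sets were at 1.67 (adjusted p = 0.175) and 0.45 (adjusted p = 0.671). Ephx2, soluble epoxide hydrolase, had 484 and 558 in IDMB+TCDD, against 26.1 and 198 in TCDD and was not called (log2 1.63, SE 0.54, adjusted p = 0.0616). Of 13 genes tested, 4 rose and 1 (Cav1) fell, against 6.58% of all genes called higher and 6.47% lower. The other 8 were not called, and the list's median was 0.03. The count of rises was 2 without IDMB+TCDD 1, 2 without IDMB+TCDD 2, 3 without TCDD 1 and 1 without TCDD 2. With the actin ratio as a covariate 1 rose and 0 fell.

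Of 12 cholesterol synthesis genes tested, 4 fell, 0 rose and 8 were not called, at a median of -0.98, against 6.47% of all genes called lower. Sqle, squalene epoxidase, had 1359.6 and 1209 in IDMB+TCDD, against 6595 and 4135 in TCDD (log2 -2.03, SE 0.44, adjusted p = 0.00688), and Fdps, which makes farnesyl diphosphate, had 1183 and 1214 in IDMB+TCDD, against 7331 and 4555 in TCDD (log2 -2.27, SE 0.58, adjusted p = 0.018). A further, family-shared probe set of Fdps was at -1.30 and was not called (adjusted p = 0.0637). Sqle gave -1.94 without IDMB+TCDD 2 (adjusted p = 0.0603) and -1.69 without TCDD 1 (adjusted p = 0.0735), and Fdps gave -2.25 without IDMB+TCDD 1 (adjusted p = 0.072), -2.29 without IDMB+TCDD 2 (adjusted p = 0.0935) and -1.93 without TCDD 1 (adjusted p = 0.132). The number of cholesterol genes called lower was 1 without IDMB+TCDD 1, 1 without IDMB+TCDD 2, 0 without TCDD 1 and 2 without TCDD 2, and 0 with the actin ratio as a covariate. In fatty acid oxidation 3 of 16 rose, against 6.58% of all genes, and 0 fell. The largest of the 3 was that of Acadm, medium-chain acyl-CoA dehydrogenase, at 19962 and 20491 in IDMB+TCDD, against 5987 and 9613 in TCDD (log2 1.41, SE 0.22, adjusted p = 0.000499). The count of rises in that pathway was 2 without IDMB+TCDD 1, 2 without IDMB+TCDD 2, 2 without TCDD 1 and 1 without TCDD 2, and 1 with the actin ratio as a covariate. In fatty acid synthesis 1 of 12 rose (Gpam) and 1 fell (Mid1ip1), and 0 rose in each of the 4 fits without 1 array. Scd1, the stearoyl-CoA desaturase, had 13663 and 8982 in IDMB+TCDD, against 6295 and 6872 in TCDD and was not called (log2 0.75, SE 0.45, adjusted p = 0.304).

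**Figure D2:**
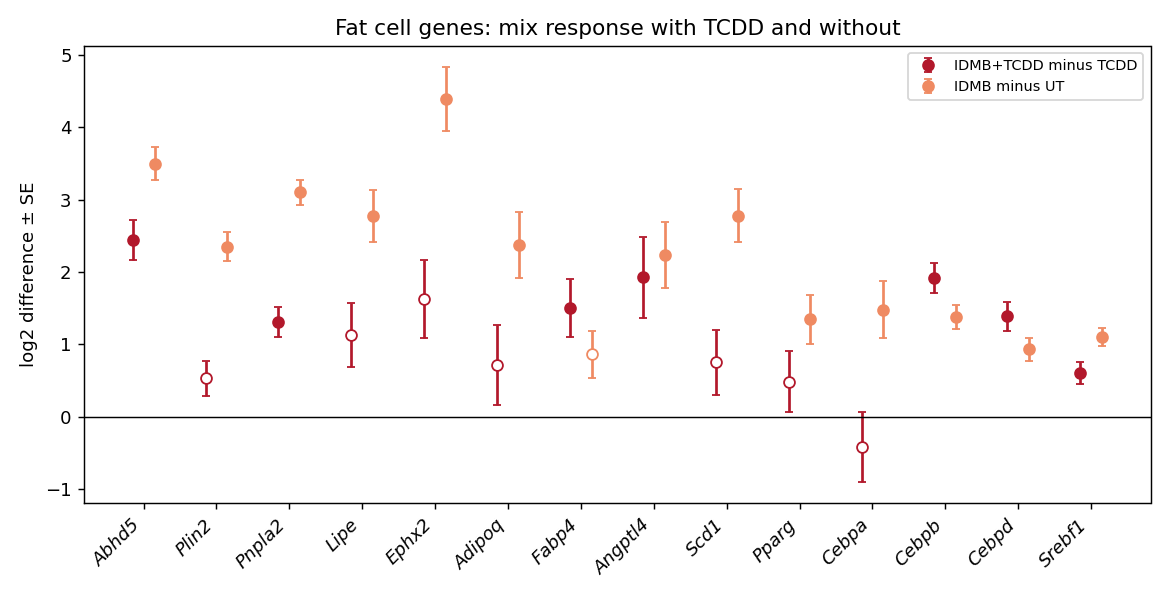
Log2 difference with its SE for 14 fat cell genes, for the mix given with TCDD (IDMB+TCDD minus TCDD, n = 2 against 2) and without it (IDMB minus UT, n = 3 against 3); filled points are called at adjusted p below 0.05. Plin2 is at 0.53 with TCDD and 2.35 without it, while Cebpb is at 1.92 and 1.38.

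AhR targets were read as a check on TCDD, which both groups received. Aldh3a1, an aldehyde dehydrogenase that AhR induces, had 25607 and 22060.2 in IDMB+TCDD and 22549 and 13365 in TCDD, and 1091, 1308 and 1069 in IDMB, against 1179, 1783 and 2174 in UT. Cyp1b1 had 129915 and 122464 in IDMB+TCDD and 97420.2 and 68000.4 in TCDD, and 57469.7, 57694 and 46908 in IDMB, against 42628, 44033 and 38314 in UT. In both genes every array with TCDD stood above every array without it. Between IDMB+TCDD and TCDD neither was called (Aldh3a1 0.45, adjusted p = 0.459; Cyp1b1 0.63, adjusted p = 0.0512), although Cyp1b1 passed without TCDD 1 (0.89, adjusted p = 0.0267). Cyp1a1, the classic target, was dimmer, at 694 and 349 in IDMB+TCDD, against 3189 and 836 in TCDD (log2 -1.73, SE 0.66, adjusted p = 0.0992). It was -0.76 without TCDD 1 (adjusted p = 0.613) and -2.70 without TCDD 2 (adjusted p = 0.0391). Nqo1, a quinone reductase under AhR and NRF2, had 10203 and 10416 in IDMB+TCDD, against 18940.4 and 15074 in TCDD (log2 -0.71, SE 0.25, adjusted p = 0.0745). Ahr, the receptor gene, had 1704 and 1531 in IDMB+TCDD, against 2876 and 1817 in TCDD (log2 -0.50, SE 0.33, adjusted p = 0.358). Of 14 AhR genes tested, 1 rose (Socs2) and 1 fell (Slc7a5, an amino acid transporter, at 3162 and 2769 in IDMB+TCDD, against 7955 and 7944 in TCDD). These counts are near the shares of all genes, 6.58% called higher and 6.47% lower.

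Contractile genes were among those that fell. Of 18 tested, 9 fell, 0 rose and 9 were not called, at a median of -0.98, against 6.47% of all genes called lower. Cnn2, a calponin that binds actin, had 2076 and 3516 in IDMB+TCDD, against 13028 and 18896 in TCDD (log2 -2.54, SE 0.29, adjusted p = 4.91e-05). Tpm1 and Tpm2, tropomyosins, had 10467 and 14746 in IDMB+TCDD, against 29819 and 40264 in TCDD, and 2740.2 and 2567 in IDMB+TCDD, against 6956 and 9735 in TCDD (log2 -1.48, SE 0.23, adjusted p = 0.000499 for Tpm1; log2 -1.63, SE 0.20, adjusted p = 5.85e-05 for Tpm2). Tagln (SM22) had 619.6 and 208 in IDMB+TCDD, against 913 and 1448 in TCDD and was not called (log2 -1.68, SE 0.61, adjusted p = 0.085), and the difference was -2.47 without IDMB+TCDD 1 (adjusted p = 0.0399) and -0.89 without IDMB+TCDD 2 (adjusted p = 0.551). The count of falls was 9 without IDMB+TCDD 1, 6 without IDMB+TCDD 2, 7 without TCDD 1 and 7 without TCDD 2, and 6 with the actin ratio as a covariate.

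Of 44 matrix genes tested, 7 fell, 3 rose and 34 were not called, against 6.47% of all genes called lower and 6.58% higher. Col4a1 and Col4a2, the main collagens of basement membranes, were among the rises: Col4a1 had 53397 and 50200.4 in IDMB+TCDD, against 18932 and 19605 in TCDD (log2 1.43, SE 0.17, adjusted p = 5.48e-05), and Col4a2 had 32697 and 36202 in IDMB+TCDD, against 13311 and 13631 in TCDD (log2 1.35, SE 0.21, adjusted p = 0.000565). The other rise was that of Bgn, biglycan, a small proteoglycan, of which a dimmer, family-shared probe set was at -0.05 (adjusted p = 0.888). The called probe set had 140326 and 176479 in IDMB+TCDD, against 109962 and 82898 in TCDD (log2 0.72, SE 0.23, adjusted p = 0.04997). Its difference was 0.89 without IDMB+TCDD 1 (adjusted p = 0.0695), 0.56 without IDMB+TCDD 2 (adjusted p = 0.322), 0.92 without TCDD 1 (adjusted p = 0.0525) and 0.52 without TCDD 2 (adjusted p = 0.299), and -0.11 after quantile normalization. Dcn, decorin, a related proteoglycan, fell to 683 and 1035 in IDMB+TCDD, against 3859 and 6155 in TCDD (log2 -2.54, SE 0.37, adjusted p = 0.000366). Ccn1, a matricellular relative of Ccn2, had 1186 and 906 in IDMB+TCDD, against 4648 and 5036 in TCDD (log2 -2.22, SE 0.39, adjusted p = 0.0018). Col1a1, the chief fibrous collagen, had 88217 and 83985 in IDMB+TCDD, against 116063 and 82949 in TCDD on its brightest probe set and was not called (log2 -0.19, SE 0.19, adjusted p = 0.567). It is among the brightest probe sets, and after quantile normalization it was called lower (-0.997, adjusted p = 7.30e-05), as was its dimmer probe set here at -1.70 (adjusted p = 0.00196). The count of falls in the list was 4 without IDMB+TCDD 1, 4 without IDMB+TCDD 2, 4 without TCDD 1 and 6 without TCDD 2, and 4 with the actin ratio as a covariate. The rises numbered 2 in each of these fits.

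Genes of lineage and of early progenitors changed singly. Bmp4, a growth factor that commits C3H10T1/2 cells to the fat lineage, fell to 3678 and 4445 in IDMB+TCDD, against 25535 and 22677 in TCDD (log2 -2.57, SE 0.30, adjusted p = 5.21e-05). Sfrp2, a secreted Wnt antagonist, had 3877 and 7631 in IDMB+TCDD, against 12468 and 29875 in TCDD (log2 -1.83, SE 0.42, adjusted p = 0.00991) and gave -1.34 without IDMB+TCDD 1 (adjusted p = 0.103), -2.46 without TCDD 1 (adjusted p = 0.00481) and -1.20 without TCDD 2 (adjusted p = 0.142). Dlk1 (PREF1), the preadipocyte factor that blocks differentiation, had 1642 and 2082 in IDMB+TCDD, against 3912 and 3678 in TCDD (log2 -1.04, SE 0.27, adjusted p = 0.021) and gave -0.87 without IDMB+TCDD 1 (adjusted p = 0.13), -1.21 without IDMB+TCDD 2 (adjusted p = 0.059), -0.99 without TCDD 1 (adjusted p = 0.107) and -1.08 without TCDD 2 (adjusted p = 0.0877). Of 18 preadipocyte and inhibitor genes 0 rose and these 3 fell, against 6.58% of all genes called higher and 6.47% lower. The count was 1 without IDMB+TCDD 1, 2 without IDMB+TCDD 2, 2 without TCDD 1 and 1 without TCDD 2, and 1 with the actin ratio as a covariate. Of 11 bone and cartilage genes, 2 rose (Mgp and Msx1) and 2 fell (Bmp4 and Tnfrsf11b), against the same 6.58% and 6.47% of all genes. In the fit over the 10 arrays without EGF 1 rose and 1 fell. Runx2 was too dim to be tested.

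The interferon list held calls in both directions. Of 23 tested, 3 fell (Ifit3, Ifit1 and Irf9) and 2 rose (Ifi204 and Ifi202b), against 6.47% of all genes called lower and 6.58% higher. The other 18 were not called, and the list's median was -0.68. Ifit1 and Ifit3 encode proteins that bind viral RNA, and both lie in a cluster on chromosome 19. Ifit1 was listed at 39.6 and 89.4 in IDMB+TCDD, against 912 and 1786 in TCDD, at least 8.89-fold lower (log2 -3.15, SE 0.56, adjusted p = 0.0018), and was at -2.95 with the actin ratio as a covariate (adjusted p = 0.0689). Ifit3 had 172 and 96.5 in IDMB+TCDD, against 2276 and 2051 in TCDD (log2 -3.78, SE 0.58, adjusted p = 0.00056). Isg15, a ubiquitin-like modifier of the same response, had 728 and 922 in IDMB+TCDD, against 2203 and 2690.1 in TCDD, without overlap, and was not called (log2 -1.57, SE 0.50, adjusted p = 0.0512). Ifi204 was given above, on a probe set that other p200 genes may share. The 3 falls became 2 without IDMB+TCDD 1, 2 without IDMB+TCDD 2, 3 without TCDD 1 and 2 without TCDD 2, and 2 with the actin ratio as a covariate. The 2 rises became 1 without TCDD 2 and 1 with the actin ratio.

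The promoter windows of Ifit1 and Ifit3 are shown because both hold the letters that interferon-activated factors are known to read. The motif was GAAANNGAAA on either strand, capitals mark each match, and positions and strands are given as above. It was present in 2 of the 3 genes of the list called lower, which had 4 windows in all. Of all 32851 windows 3.44% held it, again a share by window and not by gene.
Ifit1, chr19:34640639-34640938, plus strand: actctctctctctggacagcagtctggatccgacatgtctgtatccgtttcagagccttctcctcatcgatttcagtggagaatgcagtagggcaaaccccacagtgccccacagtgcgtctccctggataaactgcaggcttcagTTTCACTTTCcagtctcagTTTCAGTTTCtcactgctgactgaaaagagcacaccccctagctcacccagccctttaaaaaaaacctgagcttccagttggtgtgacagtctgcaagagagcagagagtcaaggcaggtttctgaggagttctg
Ifit3, chr19:34583279-34583578, plus strand: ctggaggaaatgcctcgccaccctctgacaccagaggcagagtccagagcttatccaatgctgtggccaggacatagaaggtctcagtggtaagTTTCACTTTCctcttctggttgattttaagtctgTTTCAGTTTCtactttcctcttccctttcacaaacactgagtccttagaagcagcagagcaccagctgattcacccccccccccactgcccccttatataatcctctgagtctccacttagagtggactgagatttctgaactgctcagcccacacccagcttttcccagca
The matches begin 104 and 85 bases before the gene start in Ifit1, and 156 and 122 bases before it in Ifit3, all on the opposite strand. The letters say nothing of whether a factor was bound in these cells.

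Chemokine and acute phase genes moved both ways. Of 17 tested, 5 rose and 2 fell, against 6.58% of all genes called higher and 6.47% lower, and 10 were not called. Cx3cl1, fractalkine, a membrane-bound chemokine, had 41501 and 39680.0 in IDMB+TCDD, against 11968 and 8756 in TCDD (log2 1.99, SE 0.32, adjusted p = 0.000819), though a further, dimmer probe set was at 0.20 (adjusted p = 0.903). Lcn2, lipocalin 2, which binds bacterial siderophores, had 61749 and 53499 in IDMB+TCDD, against 11765 and 13134 in TCDD (log2 2.21, SE 0.39, adjusted p = 0.0018), with a dimmer probe set at -0.05 (adjusted p = 0.944). With the actin ratio as a covariate Lcn2 was at 2.09 (adjusted p = 0.0663). Cxcl12 (SDF-1), the ligand of CXCR4, rose on 3 probe sets, among them 1 with 101119 and 108060.0 in IDMB+TCDD, against 58014 and 44148 in TCDD (log2 1.05, SE 0.23, adjusted p = 0.00737). That probe set gave 1.00 without IDMB+TCDD 2 (adjusted p = 0.0669) and 0.85 without TCDD 2 (adjusted p = 0.0863). Ackr3 (CXCR7), the scavenging receptor for Cxcl12, also rose, to 7674 and 8712 in IDMB+TCDD, against 1947 and 1892 in TCDD (log2 2.09, SE 0.26, adjusted p = 7.32e-05). The count of rises in the list was 4 without IDMB+TCDD 1, 3 without IDMB+TCDD 2, 4 without TCDD 1 and 3 without TCDD 2, and 2 with the actin ratio as a covariate.

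Counts of called cell cycle genes moved with single arrays. Of 36 genes of S phase and DNA replication, 10 fell and 0 rose, against 6.47% of all genes called lower. The list's median was -0.81, and 35 of its 36 differences, which are not independent, were negative. Mcm5, a subunit of the replicative helicase, had 5398 and 2284 in IDMB+TCDD, against 18784 and 10879 in TCDD (log2 -2.03, SE 0.42, adjusted p = 0.00487) and gave -2.65 without IDMB+TCDD 1 (adjusted p = 0.00243), -1.40 without IDMB+TCDD 2 (adjusted p = 0.0924) and -1.63 without TCDD 1 (adjusted p = 0.0618). The count of falls was 14 without IDMB+TCDD 1, 0 without IDMB+TCDD 2, 0 without TCDD 1 and 10 without TCDD 2, and 0 with the actin ratio as a covariate. Of 35 genes of G2 and mitosis 0 were called, at a median of -0.51, with 32 differences negative and 3 positive. The number called lower there was 10 without IDMB+TCDD 1, 0 without IDMB+TCDD 2, 0 without TCDD 1 and 1 without TCDD 2, and the list's median ran from -1.41 without IDMB+TCDD 1 to 0.31 without IDMB+TCDD 2. Mki67, the proliferation antigen Ki-67, had 10382 and 2074 in IDMB+TCDD, against 13321 and 2958 in TCDD. Mki67 was not called (limma log2 -0.44, adjusted p = 0.74). Its level was high on array 1 and low on array 2 of both groups. So were those of Cdk1 (20443 and 6670 in IDMB+TCDD, against 31568 and 10358 in TCDD) and Top2a (12788 and 3763, against 13931 and 4145). A fit without 1 of these arrays therefore compares unlike mixes of array 1 and array 2. The Mki67 difference was -1.60 without IDMB+TCDD 1, 0.73 without IDMB+TCDD 2, 0.65 without TCDD 1 and -1.52 without TCDD 2.

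In the NRF2 list, of genes against oxidative stress, 5 of 19 rose and 1 fell, against 6.58% of all genes called higher and 6.47% lower. Gclc, the catalytic subunit of glutathione synthesis, had 6238 and 3481 in IDMB+TCDD, against 1922 and 981 in TCDD (log2 1.76, SE 0.41, adjusted p = 0.00971) and gave 1.34 without IDMB+TCDD 1 (adjusted p = 0.0969) and 1.28 without TCDD 2 (adjusted p = 0.125). Mgst1, a microsomal glutathione transferase, had 10189.6 and 14077 in IDMB+TCDD, against 3888 and 3665 in TCDD (log2 1.67, SE 0.32, adjusted p = 0.00292), and was at 1.58 with the actin ratio as a covariate (adjusted p = 0.0904). The list's count of rises was 3 without IDMB+TCDD 1, 4 without IDMB+TCDD 2, 4 without TCDD 1 and 3 without TCDD 2, and 0 with the actin ratio as a covariate. In the endoplasmic reticulum list 2 of 21 fell, and in the insulin and IGF list 2 of 20 rose and 1 fell. These counts are near the shares of all genes given above. With the actin ratio 0 were called in either list, and the falls in the first were 2 without IDMB+TCDD 1, 1 without IDMB+TCDD 2, 2 without TCDD 1 and 1 without TCDD 2, and the rises in the other 1 without IDMB+TCDD 1, 0 without IDMB+TCDD 2, 0 without TCDD 1 and 1 without TCDD 2. Among 22 genes that EGF and MAPK signalling induce, Errfi1 rose and Ccnd1 fell, against 6.58% of all genes called higher and 6.47% lower. These counts too are near the shares of all genes.

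**Figure D3:**
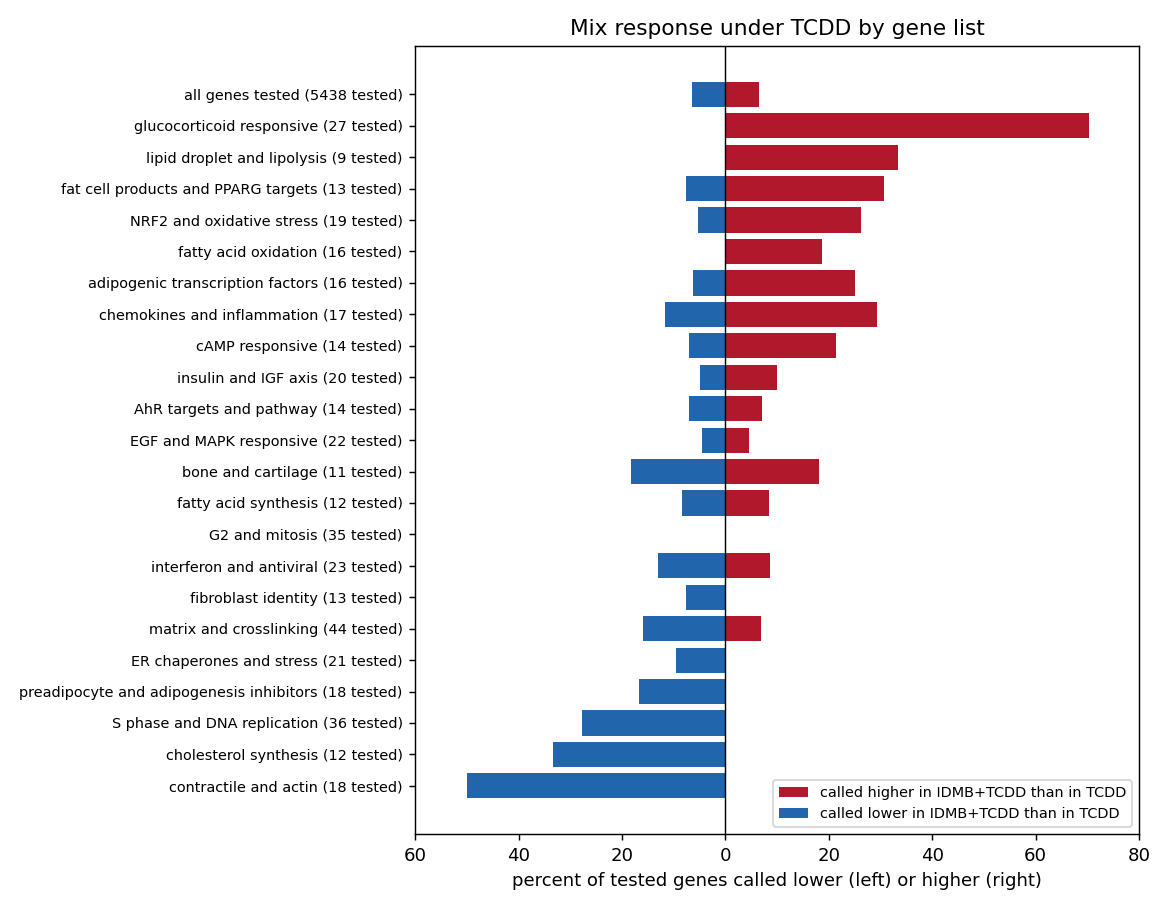
Percent of the tested genes of each list called higher (right, red) or lower (left, blue) in IDMB+TCDD than in TCDD, with all 5438 genes tested in the top row. Glucocorticoid responsive genes reach furthest to the right (19 of 27) and contractile genes furthest to the left (9 of 18).

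Markers of other cell types were read by their summed intensity. The 16 fibroblast genes, 14 of them above the floor on all 4 arrays, summed to intensities of 320563 and 333327 in IDMB+TCDD, against 378607 and 293495 in TCDD. Macrophage markers summed to 10942 and 10532 in IDMB+TCDD, against 12932 and 15420 in TCDD, of which Cd14 alone gave 5775 and 5706 in IDMB+TCDD, against 8226 and 10449.9 in TCDD. Of 16 macrophage genes 7 were above the floor on all 4 arrays, and Mrc1 was below it on all 4. Ptprc, Adgre1 and Itgam were below it on 3 arrays each. C1qc, a complement subunit, had 1155 and 1186 in IDMB+TCDD, against 362 and 331 in TCDD, and Msr1, a scavenger receptor, had 367 and 338 in IDMB+TCDD, against 161 and 192 in TCDD, both without overlap, and C1qc was not called (adjusted p = 0.131). Cd68 and Cd14 went the other way without overlap, Cd68 at 267 and 373 in IDMB+TCDD, against 666 and 664 in TCDD. In this list 4 genes were tested, and Cd14 alone was called, as lower (log2 -0.69, SE 0.17, adjusted p = 0.0151). Endothelial markers summed to 9975 and 8606 in IDMB+TCDD, against 10831 and 10115 in TCDD, of which Eng, a TGF-beta co-receptor that is not specific to endothelium, gave 7926 and 5675 in IDMB+TCDD, against 7876 and 7687 in TCDD. Of 9 endothelial genes on the array 5 were above the floor on all 4 arrays, Tie1 and Vwf were below it on all 4, and Cdh5 on 3. Epithelial markers summed to 3449 and 4279 in IDMB+TCDD, against 3820 and 3858 in TCDD, of which Cdh1, E-cadherin, gave 1936 and 2127 in IDMB+TCDD, against 1823 and 1899 in TCDD. Of 12 epithelial genes 4 were above the floor on all 4 arrays, and Epcam, Krt19 and Cldn7 were below it on all 4. What part such cells had in any result was not tested. Skeletal muscle markers summed to 11829 and 12374 in IDMB+TCDD, against 17172 and 19869 in TCDD. In that list Actc1, cardiac alpha-actin, on a probe set shared by a family, fell to 2400.0 and 1718 in IDMB+TCDD, against 6188 and 7619.9 in TCDD (log2 -1.76, SE 0.20, adjusted p = 4.22e-05), while Myod1 had 1153 and 1276 in IDMB+TCDD, against 1078 and 1793 in TCDD. Of the 8 muscle genes tested, 4 differences were positive and 4 negative, and Actc1 alone was called. Tnnc1 was higher, at 1250 and 981 in IDMB+TCDD, against 657 and 442.5 in TCDD. Tnni1 was lower, at 1975 and 2027 in IDMB+TCDD, against 4040 and 4204 in TCDD.

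The response with TCDD was then set against the mix response without TCDD, which uses no array in common. Of 7134 probe sets, the 2 responses differed for 27 (0.378%), 12 more positive with TCDD (0.168%) and 15 more negative (0.21%), while 959 had an unadjusted p below 0.05. Without TCDD the mix raised 475 probe sets and lowered 529 (14.1% called, with 6.66% higher and 7.42% lower). By genes the shares without TCDD were 7.17% higher and 8.09% lower. The probe sets called higher in both numbered 208, which is 44.6% of those with TCDD and 43.8% of those without. Those called lower in both numbered 203, or 45.3% and 38.4%. Opposite calls were 3 (higher with TCDD, lower without) and 6 (the reverse). Across the 7134 probe sets the 2 responses correlated at r = 0.583 (Spearman rho = 0.456), as a description, since probe sets are not independent. The difference was not called for Rgs2 (log2 0.70, SE 0.50, adjusted p = 0.588) or Fkbp5 (log2 -1.19, SE 0.47, adjusted p = 0.266). When the spread was estimated from the 10 arrays without EGF, 2 of the 27 were called, Pnpla2 and Mapk6. The number called was 7 to 69 with any 1 of the 10 arrays left out.

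**Figure D4:**
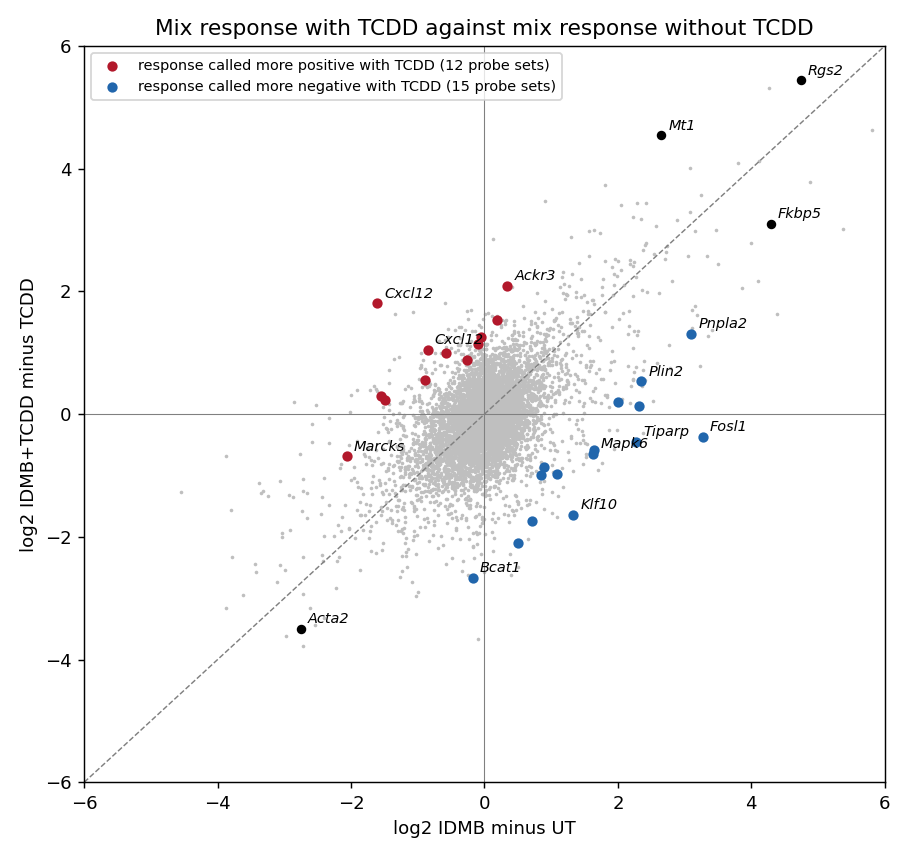
Each point is 1 of 7134 tested probe sets; the vertical axis is log2 IDMB+TCDD minus TCDD and the horizontal axis log2 IDMB minus UT, with equal responses on the dashed line. Red and blue mark the 12 and 15 probe sets whose responses differed, and Rgs2, Fkbp5, Mt1 and Acta2 are marked in black.

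Lipid droplet genes were among those whose response was smaller with TCDD. Plin2 had 18009.9 and 21073 in IDMB+TCDD, against 13687 and 13211 in TCDD, while without TCDD it had 61174, 90973 and 81397 in IDMB, against 10551, 19133 and 16950.3 in UT. Its response was 0.53 with TCDD and 2.35 without, a difference of -1.81 (adjusted p = 0.0142). Every IDMB array of Plin2 stood above both IDMB+TCDD arrays, and the difference was -1.70 without IDMB+TCDD 1 (adjusted p = 0.0644), -1.79 without TCDD 1 (adjusted p = 0.0639) and -1.84 without TCDD 2 (adjusted p = 0.0607). Pnpla2 responded by 1.31 with TCDD and by 3.10 without (24279.9, 23943 and 20749 in IDMB, against 2729, 2429 and 2884 in UT), a difference of -1.79 (adjusted p = 0.00678). Of the 9 lipid droplet genes tested, 3 rose with TCDD at a median of 0.78, and 7 rose without it at a median of 2.29. The shares of all genes called higher were 6.58% with TCDD and 7.17% without. The difference itself was called for Plin2 and Pnpla2 among these 9. Outside that list, Adipoq responded by 0.71 with TCDD and 2.37 without, and Scd1 by 0.75 and 2.78, and neither difference was called (adjusted p = 0.32 and 0.148).

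Signalling genes also differed. Fosl1 (FRA-1), an AP-1 factor, had 2133 and 1121 in IDMB+TCDD and 3068 and 1297 in TCDD, and 2110.5, 2895 and 3111 in IDMB, against 428, 155 and 318 in UT. Its level was lowest in UT, with a response of -0.37 with TCDD and 3.27 without (difference -3.64, adjusted p = 0.00812). The response with TCDD was 0.25 without TCDD 1 (adjusted p = 0.826) and -0.99 without TCDD 2 (adjusted p = 0.267), and the difference was -3.02 without TCDD 1 (adjusted p = 0.0523) and -4.26 without TCDD 2 (adjusted p = 0.00904). Tiparp, an AhR target that turns AhR off, had 8196 and 9225 in IDMB+TCDD and 12955 and 10937 in TCDD, and 2764, 5376 and 4041 in IDMB, against 1118, 562 and 844 in UT. The response was -0.45 with TCDD and 2.27 without (difference -2.73, adjusted p = 0.014). The difference was -2.64 without IDMB+TCDD 1 (adjusted p = 0.0633) and -2.61 without TCDD 1 (adjusted p = 0.0639). Mapk6 (ERK3), an atypical MAP kinase, had 2777 and 3193 in IDMB+TCDD and 4528 and 4782 in TCDD, and 15836, 18317 and 12517 in IDMB, against 5217, 4614 and 5116 in UT (difference -2.27, adjusted p = 0.00107). Klf10, a TGF-beta-induced factor, had 268 and 569.5 in IDMB+TCDD and 1330.4 and 1117 in TCDD, and 2046, 3294 and 1969.8 in IDMB, against 660.3, 1479.8 and 852 in UT (difference -2.97, adjusted p = 0.0142), and the difference was -2.43 without IDMB+TCDD 1 (adjusted p = 0.0644) and -2.85 without TCDD 1 (adjusted p = 0.064). This Klf10 probe set was called lower in IDMB+TCDD than in TCDD (log2 -1.64, SE 0.39, adjusted p = 0.0124). Another Klf10 probe set, brighter on these arrays, was not called between them (log2 -0.75, SE 0.34, adjusted p = 0.165). Bcat1, which fell with TCDD, had 2314, 2919.9 and 1525 in IDMB, against 3399, 1866 and 2344 in UT without it (difference -2.49, adjusted p = 0.0146). That difference was -2.37 without IDMB+TCDD 1 (adjusted p = 0.0644), -2.53 without TCDD 1 (adjusted p = 0.0639) and -2.45 without TCDD 2 (adjusted p = 0.0933). The calls of Mapk6 and of both Cxcl12 probe sets below held whichever 1 of the 10 arrays was left out, as did that of Pnpla2.

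In the other direction, Cxcl12 rose with TCDD and fell without it. On the probe set given above it had 30474, 33713 and 51478 in IDMB, against 62861, 75688 and 65358 in UT (response -0.85, difference 1.90, adjusted p = 0.00812). On another, family-shared probe set it had 43950.0 and 62909.9 in IDMB+TCDD and 15158 and 14835 in TCDD, and 7971, 6622 and 19974 in IDMB, against 25254, 31596 and 37655 in UT (difference 3.42, adjusted p = 0.00632). Ackr3 had 2279, 2861 and 3653 in IDMB, against 2055, 3000.5 and 1904 in UT without TCDD, so that its IDMB+TCDD arrays stood above all arrays of the other 3 groups (difference 1.75, adjusted p = 0.0258). The Ackr3 difference was 1.75 without IDMB 2 (adjusted p = 0.0592), 1.84 without IDMB+TCDD 1 (adjusted p = 0.0644), 1.66 without IDMB+TCDD 2 (adjusted p = 0.147), 1.77 without TCDD 1 (adjusted p = 0.0884), 1.73 without TCDD 2 (adjusted p = 0.117) and 1.55 without UT 2 (adjusted p = 0.0649). Marcks, an actin-binding substrate of protein kinase C, had 16644 and 19364 in IDMB+TCDD and 26818 and 31234 in TCDD, and 10984, 7972 and 9012 in IDMB, against 37779.9, 40713 and 37456 in UT (difference 1.37, adjusted p = 0.00678), so its fall was the smaller with TCDD. The difference was 1.26 without TCDD 1 (adjusted p = 0.0514). Slc12a2 (NKCC1), a sodium, potassium and chloride cotransporter, had 18500.3 and 20998 in IDMB+TCDD and 13092 and 13775 in TCDD, and 10020.4, 6754 and 10308 in IDMB, against 16223, 16418 and 16796 in UT (difference 1.45, adjusted p = 0.014), and it was 1.36 without IDMB+TCDD 2 (adjusted p = 0.0652) and 1.41 without TCDD 1 (adjusted p = 0.0639). Lifr, Hccs, Cst3 and Srsf5 were also called more positive, and Wdr55, Rrs1 and Mtss2 more negative, and each of these calls was lost without at least 1 array.

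**Figure D5:**
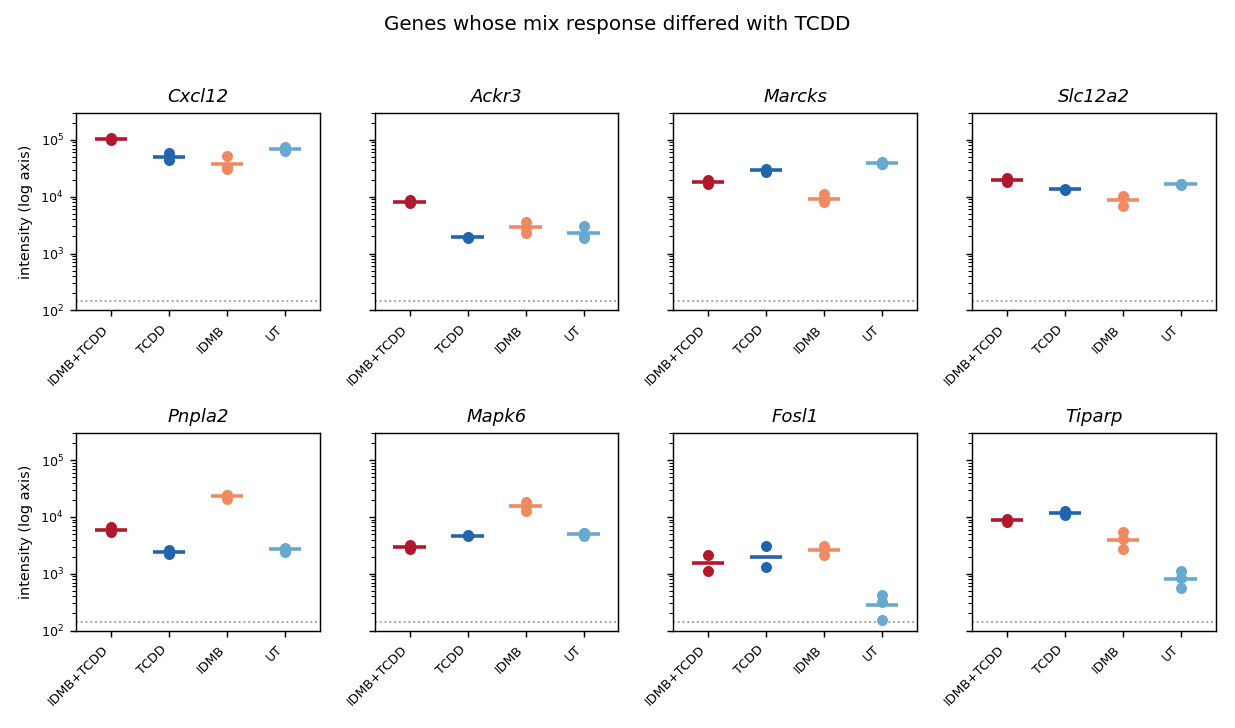
Intensity on each array (log axis) of 8 genes whose mix response differed with TCDD, in IDMB+TCDD, TCDD, IDMB and UT; points are arrays, bars geometric means and the dotted line the floor. Cxcl12 and Ackr3 are highest in IDMB+TCDD, Pnpla2 and Mapk6 are highest in IDMB, and Fosl1 and Tiparp are lowest in UT.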

How the data were processed

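RNA of pooled C3H10T1/2 cultures (total RNA in one field of the labels, mRNA in another) was read on 18 1-colour oligonucleotide arrays. The deposited values are intensities on a linear scale, from 0.4 to 441059.8. Their means after trimming 2% at either end were alike on all arrays, so scaling had taken place before deposit. Which software made them is not given in the labels or headers used here. They were used without further scaling.

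Control probe sets (66) were left out. The floor of 143.5 and log2 are described above, and differences of dim genes are understated on that scale. A probe set was kept for testing where its highest group mean was at least 9.73, the median log2 value. A gene kept through the group where it is high was bound to be kept. With the filter on the mean over all arrays, the list of fat cell products went from 13 tested genes to 7, of which 3 rose and 1 fell. The interferon list went from 23 tested genes to 12, of which 2 rose and 2 fell. Symbols came from the array annotation: 10833 probe sets have 1 symbol, 396 have several and are not named, and 1193 have none. Letters such as f, g or s in a probe set's name mark possible reading of several transcripts. The called probe sets of Lef1, Igf1 and Igfbp4 carry g, while their other probe sets, without such a letter, were not called.

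A mean for each of the 8 groups was fitted over 18 arrays with limma 3.58.1 in R 4.3.3, with a variance trend (10 residual and 6.03 prior degrees of freedom), since 2 arrays a group are few. No group is large enough to test for outlying arrays, and precision is limited by the small number of them. The members, markers and gene lists were chosen with earlier results of these data known. The rule for naming genes took the marker genes and the anchors of each list, the 15 largest called rises and falls without overlap between groups and with no more than 1 of the groups entirely below the floor, up to 8 genes in each direction whose responses differed, and up to 5 called members of each list in each direction. Which of these are printed with values was settled after the values were seen. Promoter windows are RefSeq sequence of GRCm38.p6. The alternatives were other sets of arrays, scaling, floors and filters, no variance trend, the replicate number as a block, the 3' to 5' ratios of actin and Gapdh as covariates, and each array left out.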

Additional observations from a re-analysis of the deposited data

Results flagged for a closer look

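The mix response differed with TCDD, by the test of the difference itself, for these named genes. The values are log2 of the response with TCDD minus the response without it. The difference was 1.90 and 3.42 on the 2 probe sets of Cxcl12 described above, 1.75 for Ackr3, 1.45 for Slc12a2 and 1.37 for Marcks. It was -3.64 for Fosl1, -2.97 for Klf10, -2.73 for Tiparp, -2.49 for Bcat1, -2.27 for Mapk6, -1.81 for Plin2 and -1.79 for Pnpla2. The Klf10 value is that of the dimmer of its probe sets described above. Without the filter on dim probe sets 6 of these 12 were not called: Ackr3, Bcat1, Fosl1, Klf10, Plin2 and Tiparp (adjusted p = 0.059 to 0.0699). Pnpla2 and Mapk6 were called in every fit that was run, and both Cxcl12 probe sets in every fit but that over the 10 arrays without EGF (adjusted p = 0.0674 for both).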

How the results depend on the processing

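The 914 probe sets called between IDMB+TCDD and TCDD kept their direction with arrays scaled to a common median, with either other floor, with either 3' to 5' ratio as a covariate and without each of the 4 arrays, and 903 did after quantile normalization. Other sets of arrays, the block and the variance prior leave the difference as it is and change only its error. The filter on the mean over all arrays tested 842 of them. With 466 called higher and 448 lower as given above, the number called higher was 121 with the actin 3' to 5' ratio as a covariate, and 165 to 289 with 1 of the 4 arrays left out. The number called lower was 89 with that ratio, 247 with arrays scaled to a common median, and 141 to 294 with 1 array left out. The other settings gave 655 (no filter on dim probe sets) to 1049 (replicate block) calls in all. Of the 27 differences between responses, 12 positive and 15 negative, the fit over the 10 arrays without EGF called 0 positive and 2 negative, and without the filter 9 were negative and 12 of the 27 were still called. Leaving out 1 of the 10 arrays gave 3 to 37 positive and 4 to 32 negative. With replicate number as a block 25 were positive and 27 negative, and for IDMB+TCDD against TCDD 1049 probe sets were called, 897 of them among the 914. The numbers are not known to pair cultures: deviations of IDMB+TCDD 1 and TCDD 1 from their group means correlated at 0.25. Of the 70 named probe sets called between IDMB+TCDD and TCDD, 49 were called whichever 1 array was left out, and of 12 named differences between responses 4 were. With the actin ratio 25 of the 70 were not called, and without the filter on dim probe sets 9 of the 70 and 6 of the 12 were not. The sign of the difference between IDMB+TCDD and TCDD turned for genes that were not called: Adipoq was -0.059 with the actin ratio, Tiparp 0.053 with the actin ratio, Cyp1b1 -0.068 after quantile normalization, and without single arrays Fosl1 ran from -0.99 to 0.25, Mki67 from -1.60 to 0.73 and Col1a1 from -0.43 to 0.053. Bgn, which was called, was -0.11 after quantile normalization. The causes of these changes were not tested. Dim probe sets limit what can be seen, and differences of genes near the floor are understated.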
